A study of Homo sapiens with 4 samples.

Results

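The genes described here encode the cytosolic chaperones that fold steroid receptors: the HSP90 pair HSP90AA1 and HSP90AB1, the HSP90 cochaperones FKBP4 and PTGES3, HSPA8 of the HSP70 family, the HSP110 proteins HSPA4 and HSPH1, the HSP40 proteins DNAJB1 and DNAJA1, and the small heat shock protein HSPB1. They were chosen by symbol, 10 genes in all. Of these 9 were among the 17687 genes with a named probe set, with 1 probe set each, and HSPA8 was not analysed here. All 9 passed the filter on low values and lay above background on every array.

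Total RNA came from 22Rv1, a human castration-resistant prostate cancer cell line, and was read on 4 whole-transcript arrays. The groups were siOCT1 with vehicle, siControl with vehicle, siOCT1 with dihydrotestosterone (DHT, the most potent natural androgen) and siControl with DHT, with 1 array each. All cultures had been kept for 3 days in medium with 2.5% hormone-stripped serum, siRNA was given 48 h before hormone, and ethanol vehicle or 10 nM DHT acted for 24 h. The siOCT1 siRNA targets OCT1, a transcription factor that binds octamer sites. The level of its own transcript was not analysed here, so siOCT1 stands for the transfection as labelled.

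A newly made steroid receptor is first bound by HSP40 and HSP70, which hold the unfolded chain, and HSP110 proteins help HSP70 release it. The receptor is then handed to HSP90, on which it reaches the shape that binds hormone. PTGES3 (p23) holds HSP90 in its closed, ATP-bound state with the receptor, and FKBP4 (FKBP52), an immunophilin that docks on the tail of HSP90, raises the hormone response of several steroid receptors. Heat shock factor 1 drives many of these genes in stressed cells through heat shock elements, arrays of inverted GAA units near their starts.

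The promoter windows of RefSeq (GRCh38.p14) show which of these genes carry such an element. All of the 10 genes but FKBP4 had a window, with 14 windows in all since some genes have several starts. The motif searched was TTC, any 2 bases, GAA, any 2 bases and TTC, on both strands, in the 250 bases before each start. It was found in 3 of the 14 windows, those of HSP90AA1, HSP90AB1 and HSPA8, and in 0.441% of all 35116 windows. Some lists of related chaperones, described below, held it too. It was in 1 of 6 windows of mitochondrial chaperones and 1 of 10 of HSP70 and HSP110 relatives. It was also in 1 of 13 windows of HSP40 relatives and 1 of 21 of HSP90 cochaperones. The other related lists held none. The stretches below are from the HSP90 genes, which hold the element, and from PTGES3, which does not. PTGES3 was picked because it is one of the genes called below. The windows of HSPA4, HSPH1, DNAJB1, DNAJA1 and HSPB1, which were not called, held no element either. A link between the element and the results below was not tested. The elements are in capitals.
HSP90AA1, chr14:102087100-102087152, minus strand, 108 to 56 bases before the second of 2 starts: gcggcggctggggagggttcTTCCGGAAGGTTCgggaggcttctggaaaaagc
HSP90AB1, chr6:44247758-44247863, plus strand, 185 to 80 bases before the third of 3 starts: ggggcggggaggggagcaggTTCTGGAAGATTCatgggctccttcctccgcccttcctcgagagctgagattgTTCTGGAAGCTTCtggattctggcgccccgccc
PTGES3, chr12:56688285-56688384, minus strand, the 100 bases before its start: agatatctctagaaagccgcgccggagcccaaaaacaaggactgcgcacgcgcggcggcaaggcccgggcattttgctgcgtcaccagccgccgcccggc

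HSP90AA1 and HSP90AB1 have earlier starts as well, so these stretches also lie within the span of their longer transcripts. HSPA8 held 2 elements, GAAAGTTCCAGAA, which reads on the opposite strand from 230 to 218 bases before the start, and TTCTGGAAGGTTC from 55 to 43 bases before it. The octamer ATGCAAAT, searched on both strands, was in none of the 14 windows and in 1.63% of all windows, and the androgen response element (AGAACA, any 3 bases, TGTTCT) in none of the 14 and in 1 of all 35116. The printed elements do not overlap one another. A match describes letters, not binding, and no match says only that these letters are not in this window.

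**Figure D1:**
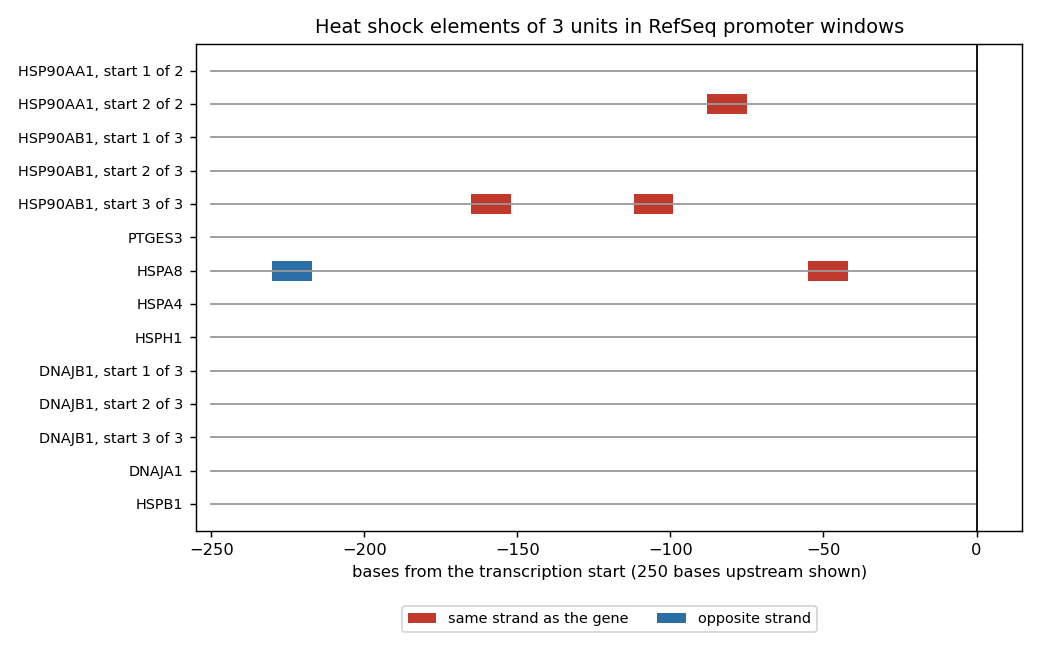
Position of heat shock elements (bars, by strand) in the 250 bases before each RefSeq start of 9 chaperone genes, 1 line per start, with distance from the start in bases. Bars are seen for 1 start each of HSP90AA1, HSP90AB1 and HSPA8.

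The deposited signals come from RMA, which makes the arrays' distributions equal, so their log2 medians between 5.99 and 6.03 follow from the processing. Pearson correlations between arrays were 0.970 to 0.987 across all 24351 probe sets. Background, the 95th percentile of 612 negative controls, was 7.39 for siOCT1 and 6.62 for siControl in vehicle, and 6.91 for siOCT1 and 6.99 for siControl in DHT. Between 327 and 379 values per array exceeded 16 on the log2 scale, more than a scanner of 16 bits records, so folds are those of the deposited scale. Of 10 luminal epithelial markers 8 lay above background on every array, among them EPCAM, KRT8, KRT18 and FOXA1. KLK2 and KLK3 did not. KLK2 lay below background on both siOCT1 arrays and above it on both siControl arrays. KLK3 lay below it on both vehicle arrays and above it on both DHT arrays. Of 10 basal, stromal and immune markers 8 lay below background on every array, including KRT5, KRT14 and PTPRC. The summed linear signal of that second list was 474 in siOCT1 and 291 in siControl cells in vehicle, and 422 in siOCT1 and 305 in siControl cells in DHT, and ACTA2 was its one member above background on both siOCT1 arrays. The part of these markers in the results below was not tested.

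Both HSP90 cochaperones had lower signal in siOCT1 cells, with and without DHT. FKBP4 read 11.68 in siOCT1 and 13.25 in siControl cells in vehicle, and 11.69 in siOCT1 and 13.01 in siControl cells in DHT. Both siOCT1 values lay more than 1 log2 unit under both siControl values, and the groups did not overlap. The differences were -1.57 in vehicle (2.97-fold lower) and -1.32 in DHT (2.49-fold lower). PTGES3 read 12.36 in siOCT1 and 13.61 in siControl cells in vehicle, and 12.36 in siOCT1 and 13.72 in siControl cells in DHT. Here too both siOCT1 values lay below both siControl values, with differences of -1.25 (2.37-fold lower) and -1.37 (2.58-fold lower). How many measured genes had siOCT1 and siControl values apart in this way was not counted, here or for the genes below. Gaps past 1.5-fold in either direction were common, at 51.6% of measured genes in vehicle and 44.9% in DHT. In both ligand states 18.7% of measured genes were lower and 12.2% higher by 1.5-fold. These shares count gaps within pairs and not a lack of overlap. A lack of overlap is thus not read here as setting a gene apart.

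Each difference rests on 2 single arrays and has no replicate check. The test available is an additive model of siRNA and ligand over the 4 arrays, fitted with limma on 8843 measured genes. Its error joins how far a gene's own siRNA difference varied with ligand (1 residual degree of freedom) with the same spread over genes of like signal. The latter carries more weight (5.85 prior degrees of freedom), and neither measures how repeat cultures varied. Below, "rose" and "fell" refer to calls of this fit at a Benjamini-Hochberg adjusted p of 0.05. In this fit FKBP4 fell by 1.44 (95% interval -1.97 to -0.92, adjusted p = 0.00694) and PTGES3 fell by 1.31 (-1.79 to -0.82, adjusted p = 0.00763). These were 2 of the 9 chaperone genes, and 15.3% of all measured genes fell in the same fit. None of the 9 rose, beside 9.1%, and 24.4% were called either way. With arrays centred on positive controls 13.8% of measured genes rose and 15.2% fell. At an unadjusted p under 0.05 stood 5 of the 9, beside 39.3% of measured genes. The FKBP4 mean difference had 7.63% of measured genes below it and that of PTGES3 9.33%, so larger falls were common on these arrays. In bulk RNA, fewer cells of a type and less RNA per cell cannot be told apart.

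**Figure D2:**
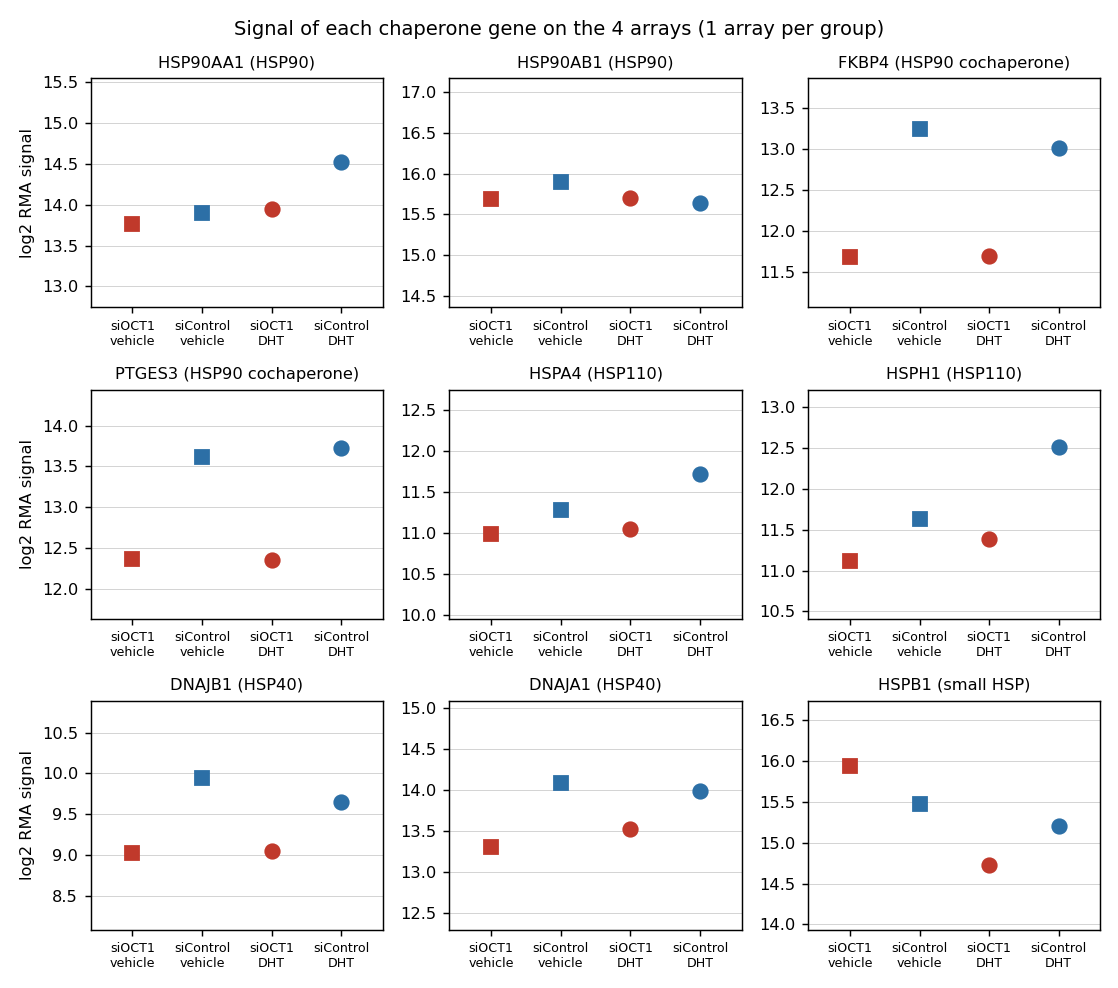
Log2 RMA signal of 9 chaperone genes on the 4 arrays, 1 point per array, red for siOCT1 and blue for siControl, squares for vehicle and circles for DHT, each panel spanning the same number of log2 units. Both siOCT1 points lie below both siControl points for FKBP4 and PTGES3, while the HSP90AB1 points lie within 15.63 to 15.89.

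HSP90AB1 is the constitutive HSP90 beta. It read 15.68 in siOCT1 and 15.89 in siControl cells in vehicle, and 15.71 in siOCT1 and 15.63 in siControl cells in DHT. The siOCT1 values lay between the siControl values, with differences of -0.21 and 0.07. All 4 values lie close to 16, where a scanner of 16 bits ends, and whether the signal is compressed there was not tested. In the limma fit the mean difference was -0.07, with a 95% interval of -0.45 to 0.31 and an adjusted p of 0.785. HSP90AA1, the stress-inducible HSP90 alpha, read 13.77 in siOCT1 and 13.90 in siControl cells in vehicle, and 13.95 in siOCT1 and 14.52 in siControl cells in DHT. The other arrays lay close together and the siControl array with DHT stood above them, so the difference was -0.13 in vehicle and -0.57 in DHT. Its mean of -0.35 (95% interval -0.83 to 0.13) did not pass (adjusted p = 0.242). In vehicle the sign of both HSP90 genes turned with other centring: with arrays centred on positive controls HSP90AA1 stood at 0.08 and HSP90AB1 at 0.0067, and with loess centring at 0.09 and 0.05.

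The HSP110 genes, exchange factors that reset HSP70, were lower in siOCT1 cells with the larger gap in DHT. HSPH1 read 11.11 in siOCT1 and 11.64 in siControl cells in vehicle, and 11.38 in siOCT1 and 12.51 in siControl cells in DHT. Both siOCT1 values lay below both siControl values. The differences were -0.52 in vehicle and -1.13 in DHT (2.20-fold lower), and the mean of -0.83 (95% interval -1.44 to -0.22) missed the threshold at an adjusted p of 0.0561. It passed with the stricter filter on dim genes (adjusted p = 0.0418), which tests fewer genes. HSPA4 read 10.99 in siOCT1 and 11.29 in siControl cells in vehicle, and 11.05 in siOCT1 and 11.73 in siControl cells in DHT. It kept the same order with smaller gaps, at -0.30 and -0.68 (1.60-fold lower in DHT), a mean of -0.49 and an adjusted p of 0.184.

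The HSP40 genes, which bring clients to HSP70 and switch on its ATPase, were lower in siOCT1 cells with the larger gap in vehicle. DNAJB1 read 9.03 in siOCT1 and 9.95 in siControl cells in vehicle, and 9.05 in siOCT1 and 9.65 in siControl cells in DHT. The siOCT1 values were nearly the same and lay below both siControl values, giving -0.92 in vehicle (1.89-fold lower) and -0.60 in DHT (1.52-fold lower). DNAJA1 read 13.30 in siOCT1 and 14.08 in siControl cells in vehicle, and 13.52 in siOCT1 and 13.98 in siControl cells in DHT. Its groups did not overlap either, with -0.78 (1.72-fold lower) and -0.46. The limma means were -0.76 for DNAJB1 (95% interval -1.38 to -0.15, adjusted p = 0.0732) and -0.62 for DNAJA1 (-1.10 to -0.15, adjusted p = 0.0623), neither of which passed.

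HSPB1 (HSP27), an ATP-independent holder of unfolded proteins, had siOCT1 differences of opposite sign in vehicle and DHT, as did HSP90AB1 by less. It read 15.94 in siOCT1 and 15.48 in siControl cells in vehicle, and 14.73 in siOCT1 and 15.20 in siControl cells in DHT. The siOCT1 arrays held both the highest and the lowest of the 4 values, so the groups overlapped fully. The differences were 0.46 in vehicle and -0.47 in DHT, and the mean was close to 0 (-0.0042, 95% interval -0.57 to 0.56, adjusted p = 0.992). The additive model takes such a crossing as residual. The siOCT1 vehicle value of 15.94 lies close to 16, as those of HSP90AB1 do, and whether it is compressed there was not tested. The same value enters the DHT response of HSPB1 in siOCT1 cells and the change of that response.

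Counted by size alone, 4 of the 9 genes were lower in siOCT1 cells by at least 1.5-fold in vehicle (FKBP4, PTGES3, DNAJB1 and DNAJA1), where 28.7% of measured genes were and 51.6% passed either way. In DHT 5 of 9 were lower (FKBP4, PTGES3, HSPH1, HSPA4 and DNAJB1), where 26% of measured genes were and 44.9% passed either way. FKBP4, PTGES3 and DNAJB1 passed in both ligand states, 3 of 9 beside 18.7% of measured genes. None of the 9 was higher by 1.5-fold in either state, beside 22.9% in vehicle, 18.9% in DHT and 12.2% in both. Opposite signs were seen in 2 of the 9 (HSP90AB1 and HSPB1), beside 23% of measured genes, and past 1.5-fold in none, beside 0.961%. In each ligand state 8 of the 9 differences were negative, beside 4671 of the 8843 measured genes in vehicle and 4779 in DHT. In vehicle HSP90AA1 and HSP90AB1 turned positive under loess and under positive-control centring, which left 6 of 9. Of the negative control probe sets, which mostly lie under background unlike the 9 genes, 56.0% in vehicle and 56.9% in DHT passed 1.5-fold either way. The median over the 9 was -0.52 in vehicle and -0.60 in DHT, beside -0.06 and -0.07 over all measured genes. With arrays centred on positive controls the vehicle median was -0.31, beside 0.15 over all measured genes, and 31.1% of them were then higher and 22.2% lower by 1.5-fold.

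**Figure D3:**
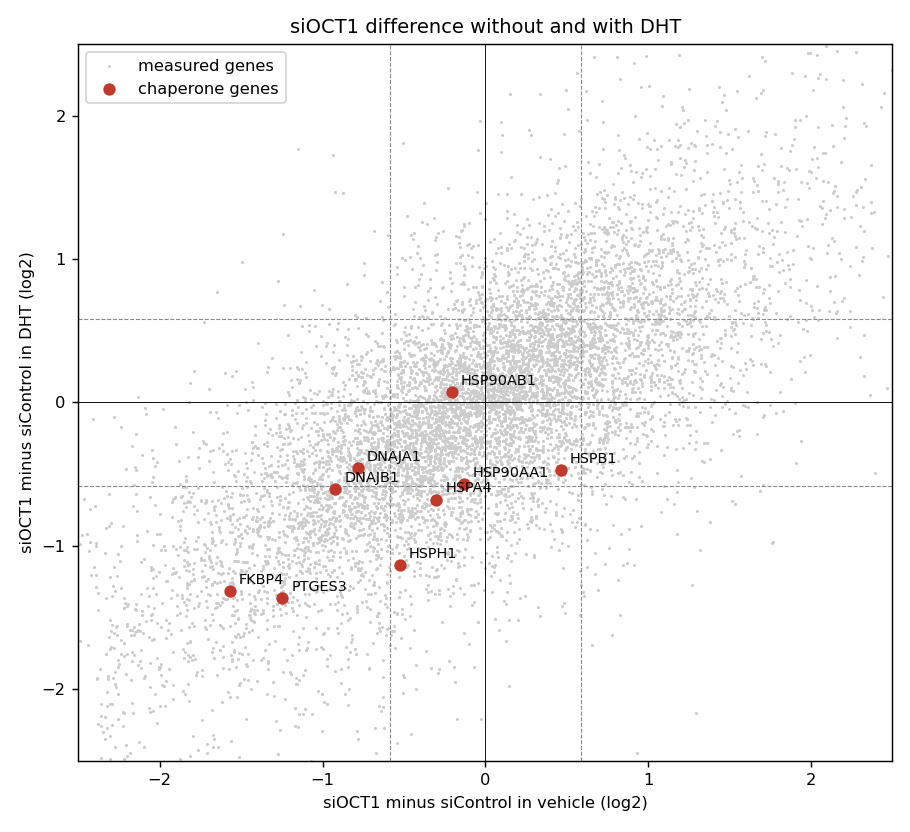
siOCT1 minus siControl in vehicle (horizontal) and in DHT (vertical), log2, for 9 chaperone genes (red) and all measured genes (grey, with 340 genes outside the axes), with dashed lines at 1.5-fold. FKBP4 and PTGES3 lie at -1.57 and -1.32 and at -1.25 and -1.37, HSP90AB1 near the centre, and HSPB1 at 0.46 and -0.47.

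In the limma fit none of the 9 was called for DHT, beside 0.984% of measured genes (0.679% higher and 0.305% lower). The lowest adjusted p was 0.248, and 1 of the 9 had an unadjusted p under 0.05, HSPB1, beside 13.5% of measured genes. By size, none was higher with DHT by at least 1.5-fold in siOCT1 cells, beside 14.1% of measured genes, and 1 was lower, HSPB1, beside 11.8% (25.8% either way). In siControl cells 2 of 9 were higher, HSPH1 and HSP90AA1, beside 15.8%, and none was lower, beside 12.8% (28.6% either way). Of the negative control probe sets, which mostly lie under background unlike the 9 genes, 56.2% in siOCT1 and 48.5% in siControl cells passed either way. None passed under both siRNAs, beside 4.86% higher, 4.37% lower and 1.4% in opposite directions, and 5 of the 9 had opposite signs, beside 39.5%. The median response was 0.02 in siOCT1 and -0.10 in siControl cells, beside 0.02 and -0.03 over all measured genes, and both signs turned under positive-control centring, to -0.04 in siOCT1 and 0.05 in siControl cells. That centring put 21.7% of measured genes higher and 8.54% lower with DHT in siControl cells.

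HSPH1 was higher with DHT by 0.27 in siOCT1 and by 0.88 in siControl cells (1.84-fold). HSP90AA1 was higher by 0.19 in siOCT1 and by 0.62 in siControl cells (1.54-fold), and HSPA4 by 0.06 in siOCT1 and 0.44 in siControl cells. These were the genes with the highest response in siControl cells, and for each the siOCT1 response was smaller. Genes picked by a high siControl response on single arrays can show a smaller siOCT1 response through that choice alone. The smaller response was not tested. HSPB1 stood at -1.21 with DHT in siOCT1 cells (2.31-fold lower), where 2.07% of measured genes had a lower response, and at -0.28 in siControl cells, where 30.3% had. FKBP4 stood at 0.01 in siOCT1 and -0.24 in siControl cells, and PTGES3 at -0.0061 in siOCT1 and 0.11 in siControl cells. HSP90AB1 stood at 0.02 in siOCT1 and -0.26 in siControl cells, DNAJB1 at 0.02 in siOCT1 and -0.30 in siControl cells, and DNAJA1 at 0.23 in siOCT1 and -0.10 in siControl cells. Under other centring the siOCT1 responses of HSP90AB1, FKBP4, DNAJB1 and HSPA4, all close to 0, changed sign, as did the siControl response of DNAJA1 (0.05).

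The siOCT1 comparisons and the DHT comparisons use the same 4 arrays, so the siControl array with DHT enters both the low siOCT1 difference and the high DHT response of HSPH1 and HSP90AA1. The siOCT1-minus-siControl change of the DHT response was -0.61 for HSPH1, -0.44 for HSP90AA1, -0.38 for HSPA4 and -0.93 for HSPB1. It was 0.28 for HSP90AB1, 0.25 for FKBP4, 0.32 for DNAJB1, 0.32 for DNAJA1 and -0.12 for PTGES3. HSPH1 and HSPB1 passed 1.5-fold, 2 of 9 beside 18% of measured genes on that side, and none passed on the other, beside 17.5% (35.5% either way). With arrays centred on positive controls 26.2% of measured genes lay on the lower side and 10.5% on the higher. The response was smaller in size in siOCT1 cells for 7 of the 9 genes, beside 53.5% of measured genes. These changes carry no test. Of the negative control probe sets, which mostly lie under background unlike the 9 genes, 65.2% passed 1.5-fold for the same change.

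**Figure D4:**
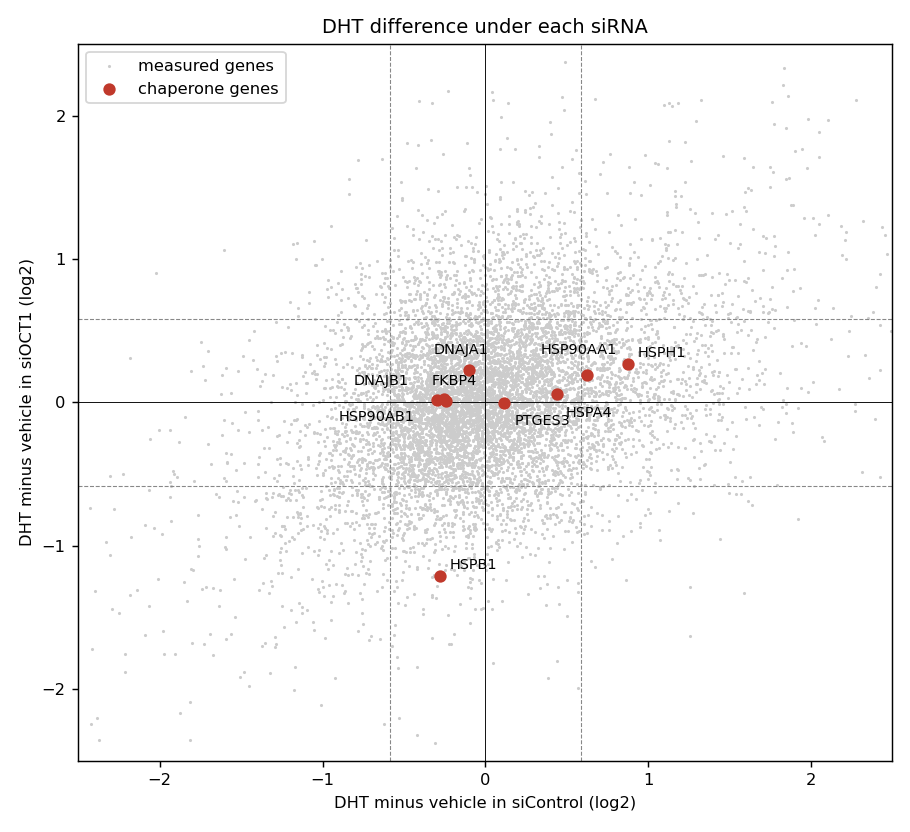
DHT minus vehicle in siControl (horizontal) and in siOCT1 cells (vertical), log2, for 9 chaperone genes (red) and all measured genes (grey, with 101 genes outside the axes), with dashed lines at 1.5-fold. HSPH1 and HSP90AA1 lie right of the dashed line and HSPB1 lies below it at -1.21.

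Beyond the receptor chaperones, 83 genes in 9 lists of related chaperones were followed, of which 63 were measured. In the limma fit 18 of the 63 fell and 2 rose in siOCT1 cells, beside 15.3% and 9.1% of measured genes. The median of their mean differences was -0.46, beside -0.06 over all measured genes. None of the 63 was called for DHT in that fit (lowest adjusted p 0.167), beside 0.984% of measured genes. At an unadjusted p under 0.05 were 7 of the 63, beside 13.5% of measured genes.

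Of 17 measured cochaperones of HSP90 3 fell in siOCT1 cells and none rose, beside 15.3% and 9.1% of measured genes. STIP1 (HOP), the adaptor that joins HSP70 to HSP90 during receptor assembly, read 11.88 in siOCT1 and 13.33 in siControl cells in vehicle, and 12.17 in siOCT1 and 13.17 in siControl cells in DHT. The groups did not overlap, at -1.45 in vehicle and -1.005 in DHT (limma adjusted p = 0.0125). CACYBP, a calcyclin-binding protein, stood at -1.83 in vehicle and -1.29 in DHT (adjusted p = 0.00551), and NUDC, a protein with a p23-like domain, at -1.54 in vehicle and -0.97 in DHT (adjusted p = 0.0203). The list median was -0.23 over both ligand states, beside -0.06 over all measured genes. In vehicle 5 of the 17 were higher by 1.5-fold and 7 lower, beside 22.9% and 28.7% of measured genes, and in DHT 1 was higher and 5 lower, beside 18.9% and 26%. FKBP8, an immunophilin with the same kind of HSP90-docking domain as FKBP4, stood on the other side, at 0.57 in vehicle and 0.59 in DHT, without passing the test (adjusted p = 0.127).

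Of the HSP70 and HSP110 relatives 4 of 9 were measured. Of these 1 fell and none rose, beside 15.3% and 9.1% of measured genes. It was HSPA14, a ribosome-associated HSP70, at -1.01 in vehicle and -0.81 in DHT (adjusted p = 0.0396). HSPA1A, the stress-inducible HSP70, whose near-identical copy HSPA1B makes its signal uncertain, stood at -1.06 in vehicle and -0.65 in DHT (adjusted p = 0.0562). HSPA6, an HSP70 made only under stress in many cells, lay below background on all 4 arrays. HSPA2 read 7.25 in siOCT1 and 6.70 in siControl cells in vehicle, and 7.79 in siOCT1 and 10.49 in siControl cells in DHT. One array, siControl with DHT, stood far above the others, with DHT at least 1.31-fold higher in siOCT1, where the vehicle value lay below background, and higher by 3.79 on the log2 scale in siControl (adjusted p = 0.241 for DHT).

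Among HSP70 exchange and holding factors 2 of 8 fell and none rose, beside 15.3% and 9.1% of measured genes. These were BAG4 at -1.04 in vehicle and -1.32 in DHT (adjusted p = 0.0201) and BAG3, a stress-induced partner of small heat shock proteins, at -0.94 in vehicle and -1.10 in DHT (adjusted p = 0.0309). HSPB8, the small heat shock protein that works with BAG3 in selective autophagy, read 7.57 in siOCT1 and 10.34 in siControl cells in vehicle, and 7.46 in siOCT1 and 9.43 in siControl cells in DHT. It fell, with -2.77 in vehicle and -1.97 in DHT (adjusted p = 0.00428), and HSPB6 fell, with -1.57 in vehicle and -0.79 in DHT (adjusted p = 0.0223), so both measured members of that list fell while HSPB1 did not pass. Of 10 HSP40 relatives 1 fell and 1 rose, beside the same 15.3% and 9.1%. DNAJC9, a histone chaperone, fell, at least 3.06-fold in vehicle and with a log2 difference of -1.63 in DHT (adjusted p = 0.00729), and DNAJB2 rose, by 1.32 in vehicle and at least 1.39-fold in DHT (adjusted p = 0.0366). HSF1, the factor that drives the heat shock response, read 9.21 in siOCT1 and 9.31 in siControl cells in vehicle, and 9.24 in siOCT1 and 9.24 in siControl cells in DHT, a mean difference of -0.05 whose sign turned with other centring.

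Some chaperones of other folding machines were called too, where 15.3% of all measured genes fell and 9.1% rose. Of 12 measured chaperonin and prefoldin genes 4 fell, among them CCT7 at -1.79 in vehicle and -1.02 in DHT (adjusted p = 0.0146) and CCT8 at -1.11 in vehicle and -1.04 in DHT (adjusted p = 0.0175), and 1 rose, the prefoldin PFDN5, at 0.82 in vehicle and 1.76 in DHT (adjusted p = 0.0175). Of 6 mitochondrial chaperones 3 fell: GRPEL1, the exchange factor of mitochondrial HSP70, at -2.86 in vehicle and -2.17 in DHT (adjusted p = 0.00253), HSPA9, that HSP70 itself, at -1.41 in vehicle and -0.83 in DHT (adjusted p = 0.0112), and HSPE1 at -1.47 in vehicle and -0.65 in DHT (adjusted p = 0.0304). Both measured relatives in the endoplasmic reticulum fell. HSPA5 (BiP), its HSP70, stood at -2.20 in vehicle and -2.47 in DHT, with the lowest adjusted p of the related genes (0.00137). HYOU1, its HSP110 protein, fell, with -1.84 in vehicle and -1.49 in DHT (adjusted p = 0.00428), where the cytosolic HSPA4 and HSPH1 did not pass. The difference between the compartments was not tested.

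For DHT the related genes with the largest differences also missed the limma threshold. HSPD1 (HSP60 of mitochondria) was higher by 0.64 in siOCT1 and 0.55 in siControl cells, with the lowest adjusted p of the 63 (0.167). BAG5 was higher by 0.91 in siOCT1 and 0.64 in siControl cells (adjusted p = 0.248), and CDC37L1, a relative of the kinase cochaperone CDC37, by 0.50 in siOCT1 and 0.86 in siControl cells (adjusted p = 0.381). DNAJC2, a ribosome-bound HSP40, was higher by 0.50 in siOCT1 and 1.43 in siControl cells (adjusted p = 0.255), and PFDN2 by 1.48 in siOCT1 and 0.24 in siControl cells (adjusted p = 0.359). These genes were higher with DHT under both siRNAs, by unequal amounts. Others were lower under both. DNAJB2 was lower, with -1.20 in siOCT1 cells and at least 1.27-fold in siControl cells (adjusted p = 0.219), FKBP8 stood at -0.49 in siOCT1 and -0.51 in siControl cells (adjusted p = 0.432), and HSPB8 at -0.11 in siOCT1 and -0.91 in siControl cells (adjusted p = 0.500).

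**Figure D5:**
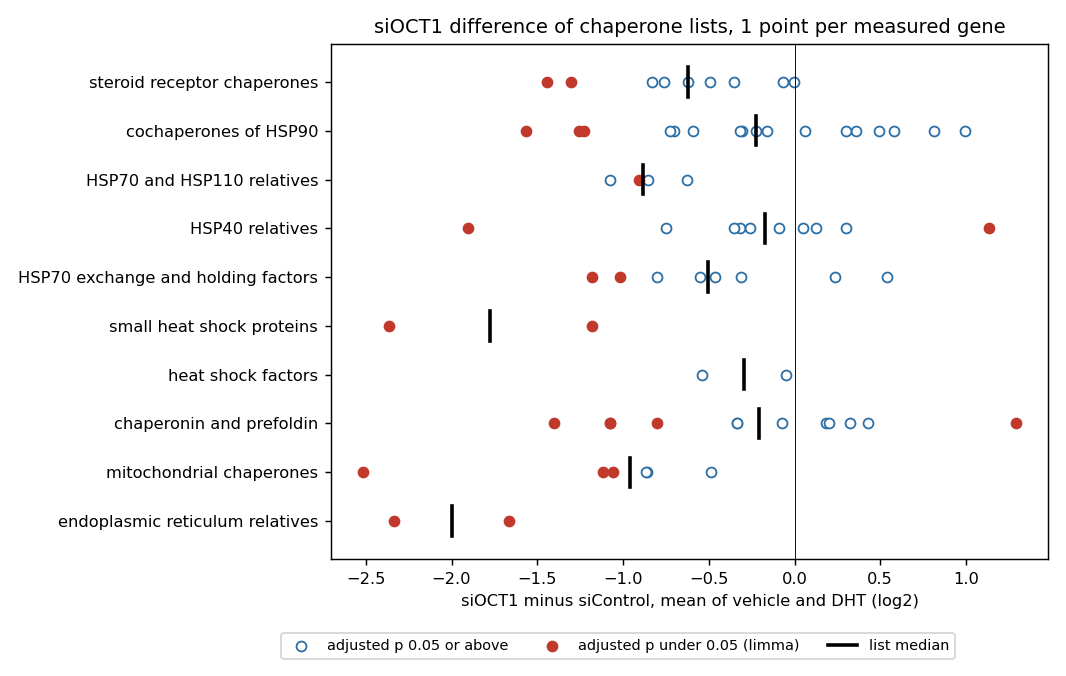
Mean siOCT1 minus siControl difference over vehicle and DHT (log2), 1 point per measured gene, for the steroid receptor chaperones (top line) and 9 lists of related chaperones, filled where the additive limma fit gave an adjusted p under 0.05, with a bar at each list median. In the top line the filled points are FKBP4 and PTGES3, and the median is -0.62.

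Several of these genes have processed copies in the genome whose transcripts the probes may share. The RefSeq table lists 5 pseudogenes named after HSP90AA1, 6 after HSP90AB1, 6 after DNAJA1, 5 each after FKBP4 and PTGES3, 2 each after DNAJB1 and HSPB1, and none after HSPA4 or HSPH1. The share of signal from such copies was not tested.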

How the data were processed

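Per the submitters' processing notes, the deposited log2 signals per probe set come from RMA and Affymetrix Expression Console. RMA corrects background, makes the arrays' distributions equal and combines probes, so a change of total RNA is lost. Versions and genome build are not given in the sources used here. The range of the values gave the log base.

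The platform table gave 1 symbol to 17709 of 24351 probe sets and several to none, and 3739 probe sets other than controls are unnamed here. For 20 genes with several probe sets the brightest was taken. Measured genes were those whose maximum over the arrays lay above the median maximum, 6.51. Folds against an array below its background are lower bounds. The additive model used limma 3.58.1 in R 4.3.3, with trended moderation (prior degrees of freedom 5.85), and was run on simulated data. Those data had equal noise in every gene and no siRNA-by-ligand difference. They therefore cannot show how well the fit serves the real arrays, where its residual holds that difference. Named genes were all listed receptor chaperones and, per related list, up to 3 with the largest absolute siOCT1 difference and 2 with the largest absolute DHT difference; HSPA6 was named after its values were seen. Members, lists and tests were chosen with earlier results of these data known. Alternatives were a 2-fold rule, no or a stricter dim-gene filter, averaged probe sets, loess or positive-control centring, 32 added before the logarithm, values raised to the highest background (7.39), and moderation that was robust or had no trend. Python 3.11.15, numpy 2.4.6, pandas 2.3.3 and matplotlib 3.10.9 were also used.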

Additional observations from a re-analysis of the deposited data

Results flagged for a closer look

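Some genes took opposite signs in a pair of comparisons that share no array. With 1 array per group these differences were not tested, and 23% of measured genes had opposite signs for siOCT1 at any size and 39.5% for DHT. HSPB1 stood at -0.47 for siOCT1 in DHT and 0.46 in vehicle, a change of -0.93, and HSP90AB1 at 0.07 and -0.21, a change of 0.28. For the DHT response in siOCT1 and then siControl cells, HSP90AB1 stood at 0.02 and -0.26 (change 0.28), DNAJB1 at 0.02 and -0.30 (0.32), DNAJA1 at 0.23 and -0.10 (0.32), FKBP4 at 0.01 and -0.24 (0.25) and PTGES3 at -0.0061 and 0.11 (-0.12).

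Among related chaperones with at least 1 difference past 1.5-fold, HSPA2 stood at -2.71 for siOCT1 in DHT and 0.55 in vehicle (change -3.26). Its vehicle value in siOCT1 lay below background, so no direction in vehicle is established. PFDN2 stood at 0.80 for siOCT1 in DHT and -0.43 in vehicle (1.23). For the DHT response, HSPE1 stood at 0.70 in siOCT1 and -0.12 in siControl (0.82), and PFDN5 at 0.24 in siOCT1 and -0.69 in siControl (0.93).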

How the results depend on the processing

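FKBP4 and PTGES3 kept their fall and their side of the threshold in every alternative run, with adjusted p of 0.00102 to 0.0206 for FKBP4 and 0.00159 to 0.0243 for PTGES3, and no called single-gene value reversed. The count of the 9 chaperone genes moved by over 1.5 times as follows. With the 2-fold rule 2 were lower for siOCT1 in vehicle, 3 in DHT, 0 were higher with DHT in siControl, and 0 passed for the change of the DHT response. With loess centring 1 was higher for siOCT1 in vehicle (HSPB1, 0.71), as with arrays centred on positive controls (1, HSPB1 at 0.67), which also gave 4 for a lower change of the DHT response. The share of all measured genes moved too. With the 2-fold rule the shares higher and lower were 11.8% and 17.4% for siOCT1 in vehicle, 8.64% and 13.9% in DHT, 4.67% and 3.51% for DHT in siOCT1, 7.5% and 4.13% in siControl, and 6.26% and 7.33% for the change. Without a filter 18.8% were lower for siOCT1 in vehicle, and limma called 3.25% higher and 5.9% lower for siOCT1 and 0.243% and 0.0792% for DHT. With the stricter filter limma called 1.31% and 0.543% for DHT, and with loess centring 0.475% lower. Centring on positive controls gave 10.5% higher for the change, 13.8% higher for siOCT1 by limma, and 2.23% higher and 1.09% lower for DHT. With values raised to the highest background 9.35% were higher and 7.27% lower with DHT in siOCT1, 8.46% were lower in siControl, and limma called 5.48% higher for siOCT1 and 0.0905% and 0.0113% for DHT, after 1109 genes at that level on every array were left out of its fit. Without an intensity trend limma called 0.249% and 0.0905% for DHT. The causes were not tested, beyond that filters and the 2-fold rule change which genes are counted. No paired analysis was possible because each group holds 1 array and the labels give no replicate numbers. Leaving out an array would leave no residual degree of freedom, so 1 array can decide any value here. For HSPA2 the siControl array with DHT stood far above the others. The same array enters the larger siOCT1 gap and the larger DHT response of HSPH1 and HSP90AA1.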
